A study of Mus musculus with 10 samples.

Results

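Genes of fat cell lipid storage and heat production were examined in the colitic mouse colon: 35 listed symbols, each read from the 1 probe set that carries its symbol on a Clariom S Mouse array. Of these, 33 were measured among 19505 genes, and no member had more than 1 probe set. Acsl1, a long-chain acyl-CoA synthetase, and Adrb3, the fat cell adrenergic receptor, had no named probe set here and were left out. The arrays held total RNA of complete colon from wildtype C57BL/6 mice. All mice drank 3% dextran sulfate sodium (DSS), which injures the colonic epithelium, and received an antibody against the checkpoint receptor PD1 into the abdominal cavity. The ECP group (5 arrays) was additionally given cells from donors that had undergone ECP (extracorporeal photopheresis), a treatment with a light-activated drug and ultraviolet A. The control group (5 arrays) was given the same DSS and antibody without the cells. No colon without colitis was among the arrays, and the type and dose of the donor cells, the times, and the age and sex of the mice are not stated in the labels. Whether every array comes from its own mouse is not stated, so the p-values reflect spread among samples that could be technical.

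White fat cells keep triglyceride in 1 large droplet coated by perilipins, build it from glycerol phosphate and imported fatty acids, and release it again through a chain of lipases. The nuclear receptor PPARG and the factor C/EBP alpha switch on most of these genes. Brown and beige fat cells burn the same fatty acids through the mitochondrial uncoupler UCP1. The colon wall holds few fat cells, but mesenteric fat lies against it, and several of these genes are also active outside fat: PPARG and the gluconeogenic enzyme PCK1 are also active in gut epithelium.

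The colon label was borne out by its markers. The mean log2 value of 8 colonocyte markers was 11.41 to 12.15 on the 10 arrays, and that of 6 goblet cell markers 12.48 to 12.91. Values are log2 RMA intensities, on which 1 unit is a doubling. Values of different probe sets are not set against each other, except where a rank among all genes is given. In bulk tissue, fewer cells of a type and less RNA per cell cannot be told apart. Control replicates 1 and 4 carried pancreatic acinar transcripts (mean of 6 markers 10.97 and 12.72). Control replicate 5 was at 6.89, and the remaining arrays were at 5.54 to 5.84. Control replicate 4 was also high in B cell markers (8.67, against 5.72 to 7.05). As a gauge of fat cells that uses none of the members, the mean of the fat cell hormone genes Adipoq (adiponectin), Lep (leptin) and Retn (resistin) was taken for each array and is called the adipokine level. Cfd (adipsin), also intended for it, had no named probe set here. Over the 10 arrays Adipoq spanned 3.24 log2 units, Retn 1.43 and Lep 0.68, so the level mostly followed Adipoq. Whether it measures the amount of fat cells was not tested. The mean of 7 white fat cell markers, which include these 3 genes, Plin1 and Cidec, was 6.25 to 6.84 in ECP and 5.95 to 6.57 in control arrays. Lep was dim (percentile 19.9 of all genes by mean value). It was lowest in control replicate 4 (4.44) and ECP replicate 2 (4.48), with control replicate 5 at 4.70. The adipokine level was 6.43, 5.38, 6.40, 6.38 and 6.41 in ECP replicates 1 to 5, and 5.72, 5.96, 5.87, 6.00 and 4.75 in control replicates 1 to 5. ECP replicate 2 and control replicate 5 were low, the other 4 ECP arrays lay close together, and the groups overlapped (difference 0.54, exact permutation p = 0.135, two-sided, 252 splits).

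Promoter windows, 250 bases before a RefSeq transcription start on GRCm38.p6, were found for 22 of the 33 measured members. The windows below are shown because Plin1, Plin4 and Lipe had the largest slopes on the adipokine level among members with a window. Pparg, Mgll, Sncg and Ucp1, which also have windows, differed between the groups at an unadjusted p under 0.05; of these, Ucp1 and Pparg are shown for the half-site they hold, and Pparg by the 1 of its 3 windows that also holds TATAAA. Each is written 5′ to 3′ in the direction of the gene, and capitals mark AGGTCA, the nuclear receptor half-site, or TATAAA, on either strand; the windows of Plin1, Plin4 and Lipe hold neither.
Plin1, chr7:79732777-79733026, minus strand: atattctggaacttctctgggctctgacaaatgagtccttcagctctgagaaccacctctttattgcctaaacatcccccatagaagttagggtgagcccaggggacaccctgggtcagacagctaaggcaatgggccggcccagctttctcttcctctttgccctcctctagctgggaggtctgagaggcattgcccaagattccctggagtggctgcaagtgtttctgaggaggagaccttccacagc
Plin4, chr17:56109783-56110032, minus strand: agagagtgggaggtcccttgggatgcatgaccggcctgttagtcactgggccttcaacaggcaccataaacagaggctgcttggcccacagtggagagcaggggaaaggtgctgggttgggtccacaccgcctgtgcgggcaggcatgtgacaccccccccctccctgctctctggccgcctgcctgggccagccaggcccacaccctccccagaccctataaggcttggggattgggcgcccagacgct
Lipe, first listed start, chr7:25395988-25396237, minus strand: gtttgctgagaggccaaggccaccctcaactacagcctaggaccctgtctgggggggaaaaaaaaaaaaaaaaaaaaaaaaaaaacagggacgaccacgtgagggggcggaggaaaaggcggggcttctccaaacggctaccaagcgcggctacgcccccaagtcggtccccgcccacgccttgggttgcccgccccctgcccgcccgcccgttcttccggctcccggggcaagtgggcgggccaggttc
Lipe, the other start, chr7:25390113-25390362, minus strand: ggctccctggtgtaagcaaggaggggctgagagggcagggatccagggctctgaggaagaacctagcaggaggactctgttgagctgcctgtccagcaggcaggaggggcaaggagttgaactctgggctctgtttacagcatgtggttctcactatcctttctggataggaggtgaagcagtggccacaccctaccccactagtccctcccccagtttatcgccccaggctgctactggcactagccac
Pparg, start with a TATA box, chr6:115362099-115362348, plus strand: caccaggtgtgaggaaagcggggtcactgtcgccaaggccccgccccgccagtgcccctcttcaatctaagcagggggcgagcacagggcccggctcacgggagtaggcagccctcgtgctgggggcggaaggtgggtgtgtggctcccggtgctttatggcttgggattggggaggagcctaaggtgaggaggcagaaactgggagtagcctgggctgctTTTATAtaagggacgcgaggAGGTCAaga
Ucp1, chr8:83290098-83290347, plus strand: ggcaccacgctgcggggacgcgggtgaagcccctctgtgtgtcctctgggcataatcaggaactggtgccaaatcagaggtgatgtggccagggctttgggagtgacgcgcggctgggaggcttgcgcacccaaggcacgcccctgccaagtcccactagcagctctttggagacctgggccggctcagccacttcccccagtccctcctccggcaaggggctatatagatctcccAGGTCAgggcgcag
The 33 member windows counted here belong to 23 listed members, the 22 measured ones and Acsl1, which was not measured. The full PPAR response element, 2 copies of AGGTCA separated by 1 base of any kind, was in 0 of the 33 windows of members and in 0.0335% of 32851 windows of the same length. The half-site was in 8 member windows, 2 each of Pparg and Aqp7 and 1 each of Ucp1, Plin2, Plin5 and Adig, against 14.02% of all windows; those of Aqp7 overlap. TATAAA was in 3 member windows (Pparg, Cebpa and Ghr), against 12.4% of all windows. The C/EBP palindrome TTGCGCAA was in 0 member windows and 0.164% of all. CACGTG, an E-box of the carbohydrate and sterol response type, was in 2 member windows, against 6.02% of all. These were 1 of Mgll and the first listed of Lipe, where it is not capitalised above. Both strands were searched. These are matches of letters only, and the arrays do not tell which start was used.

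Of the 33 members, only Car3 and Fabp4 followed the adipokine level past the threshold. Car3 codes for carbonic anhydrase 3, a very abundant cytosolic protein of fat cells and also of muscle, and Fabp4 for the fatty acid carrier of fat cells. The slope of each gene on the adipokine level was fitted with limma beside the group, and p-values were adjusted over 19502 genes. It called 2 genes in the whole table (0.0103%), and both were members. That Adipoq varied with Car3 on these arrays was known when the test was chosen, so the Car3 call is not independent support. Car3 changed by 2.02 log2 units per unit of adipokine level (SE 0.10, limma adjusted p = 1.22e-05), and Fabp4 by 0.81 (SE 0.10, limma adjusted p = 0.0486).

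Car3 stood at 9.09, 6.95, 9.04, 8.95 and 9.05 in ECP replicates 1 to 5 and at 7.59, 8.47, 8.11, 8.60 and 5.99 in control replicates 1 to 5. It was lowest in control replicate 5 and ECP replicate 2, the arrays with the lowest adipokine level, and its 10 values had the same order as the adipokine level. Within both groups that order was shared by 6 of 19502 genes (0.0308%), and Car3 was the 1 member among them. The span from lowest to highest was 3.09 log2 units, or 8.53-fold, the widest of the 33 members. Over the 10 arrays Pearson's r was 0.988 and Spearman's rho 1.0 (both permutation p = 1e-05, the smallest that 100000 permutations can give, 0.195 after adjustment over 19502 genes). Within the groups, with each group's mean taken out, r was 0.992 (exact permutation p = 6.94e-05 over 14400 orders, the smallest they can give; adjusted p = 0.451). At these smallest p-values a single gene cannot pass after adjustment over 19502 genes, so nothing is concluded from the adjusted permutation p-values. Without the 2 arrays farthest from the median adipokine level, control replicate 5 and ECP replicate 2, r was 0.955. The 8 arrays left fall into 4 ECP arrays at a high and 4 control arrays at a lower adipokine level. The slope was 1.98 to 2.10 when any 1 array was left out, with an adjusted p of 0.00177 or lower, and 3.63 (adjusted p = 0.172) when ECP replicate 2 and control replicate 5 were both left out.

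Fabp4 stood at 9.19, 8.36, 9.20, 9.04 and 9.43 in ECP replicates 1 to 5 and at 8.77, 9.04, 8.83, 9.22 and 8.10 in control replicates 1 to 5. The same 2 arrays were lowest, and the groups overlapped over most of their range. Its r was 0.939 (permutation p = 0.00022, adjusted p = 0.858) and rho 0.855 (permutation p = 0.00288, adjusted p = 0.924), and r was 0.759 without those 2 arrays. Its slope lay between 0.78 and 0.87 with any 1 array left out. The limma call held without ECP replicate 5 (adjusted p = 0.0495) and ended without each of the other 9 arrays (0.0684 to 1). Without both ECP replicate 2 and control replicate 5 the slope was 1.58 (adjusted p = 0.299).

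**Figure D1:**
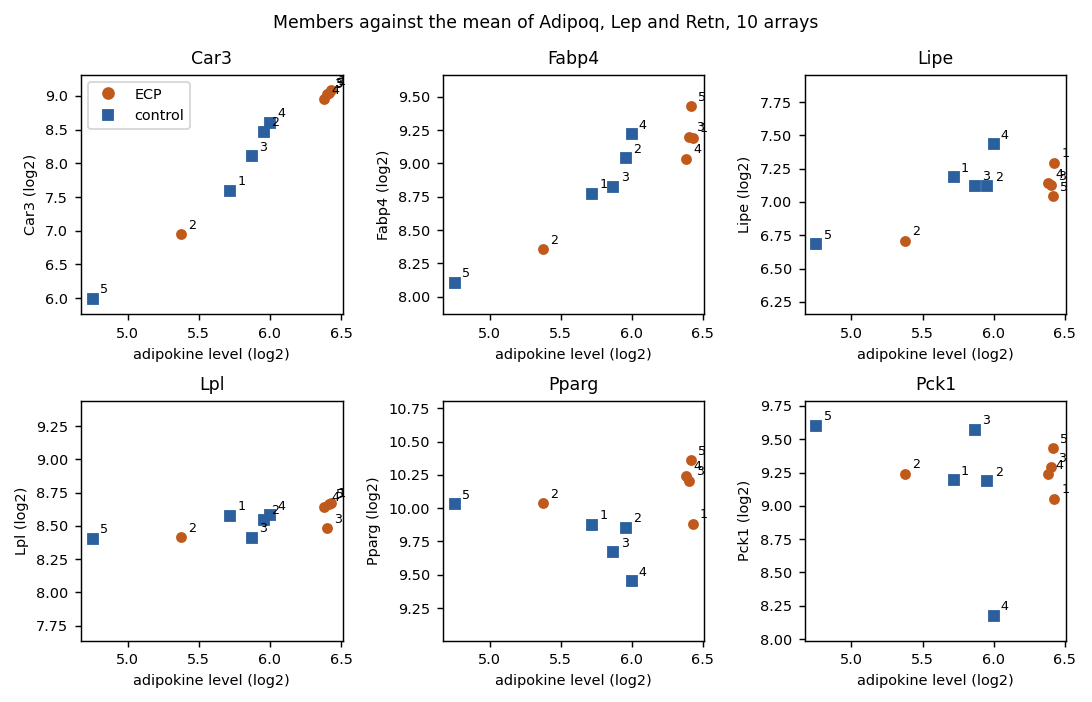
Log2 value of 6 members (vertical axes, panel by panel) against the adipokine level (horizontal axes, mean log2 value of Adipoq, Lep and Retn), with 1 point per array, circles for ECP, squares for control, and replicate numbers beside the points. Car3 runs from 5.99 to 9.09 along the adipokine level, Fabp4 from 8.10 to 9.43, and Pck1 is lowest in control replicate 4, at 8.18.

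The other 31 members had no slope past the threshold. In all, 25 of 33 slopes were positive (75.8%, against 44.9% of all genes) with a median of 0.07, against -0.01 over all genes, and 5 had an unadjusted p under 0.05 (15.2%, against 3.85%), all of them positive (1.55% of all genes). These 5 were Car3, Fabp4, Lipe, Plin4 and Plin1. Without ECP replicate 2 alone, 17 slopes were positive and 16 negative (median 0.03), and without control replicate 5 alone 24 and 9 (median 0.13). Without both, 15 were positive and 18 negative (median -0.37, against -0.05 over all genes). The adipokine level then spanned only 6.38 to 6.43 in ECP and 5.72 to 6.00 in control arrays. Slopes fitted beside the group are poorly determined over so little spread, and nothing is concluded from their signs.

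**Figure D2:**
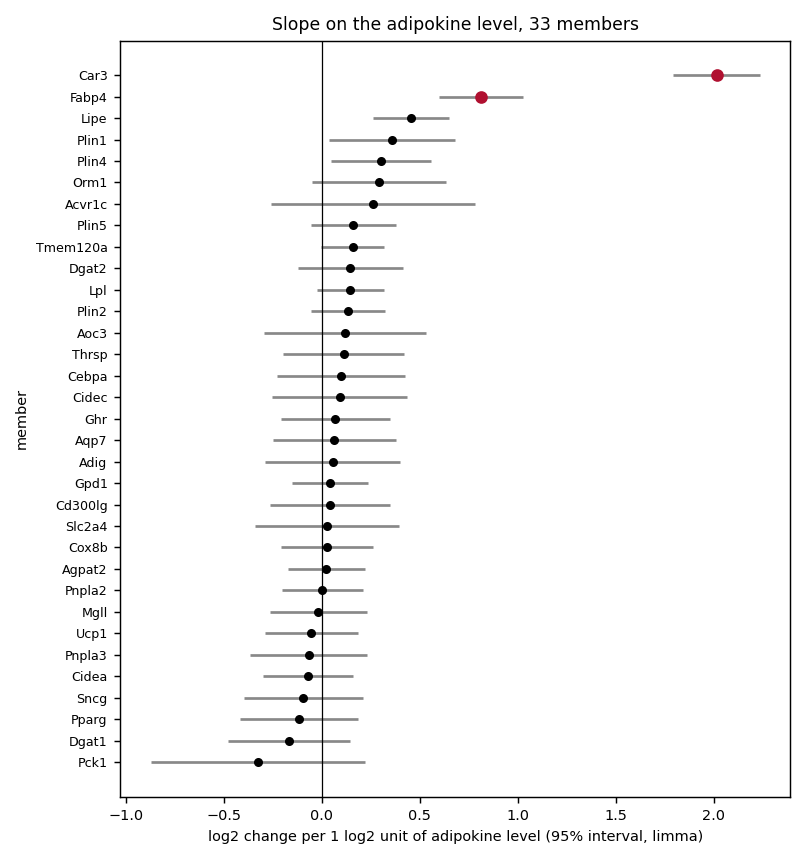
Slope of each of the 33 members on the adipokine level (horizontal axis, log2 change per 1 log2 unit), with 95% intervals from limma, ordered by size. Red points mark Car3 and Fabp4, the members past the adjusted threshold, and the smallest slope is that of Pck1 at -0.33.

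Among the genes of the droplet coat, Plin1, the perilipin that guards the fat cell droplet from lipases, stood at 6.01, 5.44, 5.48, 5.88 and 6.09 in ECP replicates 1 to 5. In control replicates 1 to 5 it was 6.08, 5.75, 5.67, 5.74 and 5.39, so both groups covered nearly the same span. Its slope was 0.36 (SE 0.15) and that of Plin4, another perilipin of fat cells, 0.30 (SE 0.12), both with a limma adjusted p of 0.9995. Over the 10 arrays r was 0.592 for Plin1 and 0.594 for Plin4. Without ECP replicate 2 and control replicate 5, r was 0.01 for Plin1 and 0.005 for Plin4, so r over the 10 arrays rests on those 2. These r have no group term. The slopes were then -1.05 and -0.11 (limma adjusted p = 0.621 and 0.964), poorly determined over the little spread left. Plin2, the perilipin found on droplets of nearly all cells, was at 9.54 ± 0.16 (SD, n = 5) in ECP and 9.55 ± 0.05 (SD, n = 5) in control arrays. Plin5, the perilipin of cells that burn fat, was at 5.71, 5.58, 5.91, 5.70 and 5.85 in ECP replicates 1 to 5 and at 5.85, 5.93, 5.87, 5.57 and 5.63 in control replicates 1 to 5, the narrowest span of the droplet coat genes (0.36). Cidec, which fuses small droplets into a large one, had the widest (0.78). It stood at 6.71, 6.83, 6.98, 7.43 and 7.34 in ECP replicates 1 to 5 and at 6.84, 6.65, 6.97, 6.82 and 6.85 in control replicates 1 to 5. Only ECP replicates 3, 4 and 5 lay above the controls, and of these replicates 4 and 5 by more than the spread among the control arrays, while ECP replicate 2, low in Car3 and Fabp4, was not the lowest array.

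Of the regulators, Pparg stood at 9.88, 10.04, 10.21, 10.24 and 10.36 in ECP replicates 1 to 5 and at 9.88, 9.85, 9.67, 9.45 and 10.03 in control replicates 1 to 5. ECP replicates 2 to 5 lay above every control array and ECP replicate 1 did not. It did not track the adipokine level (slope -0.12, SE 0.14, limma adjusted p = 0.9995): control replicate 5, with the lowest adipokine level, had the highest Pparg of the controls. Cebpa, the C/EBP alpha gene, was at 8.42 ± 0.25 (SD, n = 5) in ECP and 8.38 ± 0.19 (SD, n = 5) in control arrays. Thrsp, a nuclear protein tied to fatty acid synthesis, was at 5.42, 5.03, 5.01, 5.38 and 5.36 in ECP and at 5.41, 5.08, 5.54, 5.04 and 5.20 in control replicates 1 to 5, with full overlap of the groups.

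Among the genes of uptake, Lpl, the lipoprotein lipase that frees fatty acids in capillaries, was at 8.67, 8.41, 8.48, 8.64 and 8.67 in ECP and at 8.58, 8.55, 8.41, 8.58 and 8.41 in control replicates 1 to 5. That span of 0.27 was the narrowest of the 33 members. Its slope was 0.15 (SE 0.08, limma adjusted p = 0.9995), with r = 0.729 (permutation p = 0.0123, adjusted p = 0.999) and rho = 0.806 (permutation p = 0.00691, adjusted p = 0.924), and r was 0.502 without control replicate 5 and ECP replicate 2. Slc2a4, the insulin-regulated glucose transporter of fat and muscle, was highest in ECP replicate 2 (7.49) and lowest in control replicate 5 (6.41), so the arrays with the lowest adipokine levels were at opposite ends. Aqp7, the glycerol channel, was at 5.58 ± 0.20 (SD, n = 5) in ECP and 5.73 ± 0.22 (SD, n = 5) in control arrays.

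Among the genes of triglyceride synthesis, Pck1 had the widest span (1.43), followed by Dgat1 (0.68, against a median of 0.50 over all genes), and Gpd1 the narrowest (0.34). Gpd1, which makes glycerol phosphate, was at 8.86, 8.78, 8.72, 8.72 and 8.89 in ECP and at 8.75, 8.91, 8.58, 8.71 and 8.68 in control replicates 1 to 5. Agpat2, which adds the second fatty acid, was at 10.84 ± 0.13 (SD, n = 5) and 10.74 ± 0.07 (SD, n = 5). The enzymes of the last step, Dgat1 and Dgat2, were at 7.33 ± 0.24 and 9.70 ± 0.17 in ECP and at 7.29 ± 0.20 and 9.57 ± 0.20 in control arrays (SD, n = 5). Pck1, which feeds glycerol synthesis in fat and is active in gut epithelium, was at 9.05, 9.24, 9.29, 9.24 and 9.43 in ECP and at 9.19, 9.18, 9.57, 8.18 and 9.60 in control replicates 1 to 5. Only control replicate 4 stood apart. Its slope on the adipokine level, -0.33 (SE 0.25, limma adjusted p = 0.9995), was the smallest of the 33.

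Among the lipases, Lipe (hormone-sensitive lipase) stood at 7.30, 6.71, 7.13, 7.14 and 7.04 in ECP and at 7.19, 7.12, 7.12, 7.43 and 6.68 in control replicates 1 to 5. ECP replicate 2 and control replicate 5 were again lowest, and the rest lay between 7.04 and 7.43. With a slope of 0.45 (SE 0.09, limma adjusted p = 0.9995), r was 0.715 (permutation p = 0.0226, adjusted p = 0.999) and rho 0.491 (permutation p = 0.154, adjusted p = 0.948). Without those 2 arrays r, which has no group term, was -0.16, so r over the 10 arrays rests on them. Within the groups r was 0.908 (exact permutation p = 0.0103, adjusted p = 0.999). The Lipe slope was 0.41 to 0.48 with any 1 array left out. Pnpla2, the lipase ATGL that starts lipolysis, was at 10.25, 10.14, 10.27, 10.37 and 10.40 in ECP and at 10.16, 10.28, 10.42, 10.19 and 10.43 in control replicates 1 to 5. Control replicate 5 was the highest of the 10 and ECP replicate 2 the lowest. Mgll, which cleaves the last fatty acid, was at 8.15 ± 0.09 (SD, n = 5) in ECP and 7.92 ± 0.20 (SD, n = 5) in control arrays, and Pnpla3, a relative of ATGL, at 5.38 ± 0.13 and 5.27 ± 0.25 (SD, n = 5).

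None of the 3 thermogenic genes had a slope past the threshold. All 3 were dim: by mean value Ucp1, Cidea and Cox8b ranked at percentiles 9.3, 23.5 and 21.0 of all genes. They lay below the lower quartile (5.25), and whether they exceed background could not be judged without detection calls. Ucp1, the uncoupler itself, was at 4.02, 4.18, 4.02, 3.89 and 3.84 in ECP and at 4.17, 4.38, 3.99, 4.35 and 4.16 in control replicates 1 to 5. Cidea, a droplet protein of brown fat, was at 5.20, 5.26, 5.11, 5.10 and 5.43 in ECP and at 5.22, 4.86, 5.14, 4.95 and 5.10 in control replicates 1 to 5. Cox8b, a cytochrome oxidase subunit of brown fat and muscle, was at 5.23, 4.85, 4.89, 5.14 and 5.05 in ECP and at 4.75, 4.97, 4.80, 4.72 and 4.97 in control replicates 1 to 5. For all 3 genes the groups overlapped, and each gene varied by 0.57 log2 units or less over the 10 arrays. The median pairwise r among these 3 genes was -0.51. The mean of 8 brown fat markers, these 3 among them, was 5.62 to 5.75 in ECP and 5.67 to 5.72 in control arrays.

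Of the remaining members, Acvr1c, the activin receptor ALK7 of fat cells, had a wide span (1.30), from 5.82 in ECP replicate 2 to 7.11 in control replicate 3. Aoc3, a surface amine oxidase of fat cells and smooth muscle, spanned 1.01 and was lowest in control replicate 1 (6.45), the array with the lowest smooth muscle level (mean of 8 markers 10.02, against 10.37 to 11.11 elsewhere). Its slope on the smooth muscle level was 0.80 (SE 0.18, limma adjusted p = 0.143). Tmem120a, a nuclear envelope protein involved in fat cell differentiation, was at 7.74, 7.68, 7.91, 7.88 and 7.86 in ECP and at 8.05, 8.03, 7.98, 7.93 and 7.79 in control replicates 1 to 5. Control replicates 1 to 4 lay above every ECP array. Its slope was 0.16 (SE 0.07, limma adjusted p = 0.9995), and -0.37 without ECP replicate 2 and control replicate 5. Adig (adipogenin, a small fat cell membrane protein) was at 6.33 ± 0.19 and 6.22 ± 0.27, Ghr (growth hormone receptor) at 9.09 ± 0.13 and 8.93 ± 0.22, Cd300lg (a receptor of capillary endothelium) at 6.06 ± 0.19 and 6.09 ± 0.21, and Orm1 (an acute phase protein) at 4.83 ± 0.19 and 4.83 ± 0.33 in ECP and control arrays (SD, n = 5).

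**Figure D3:**
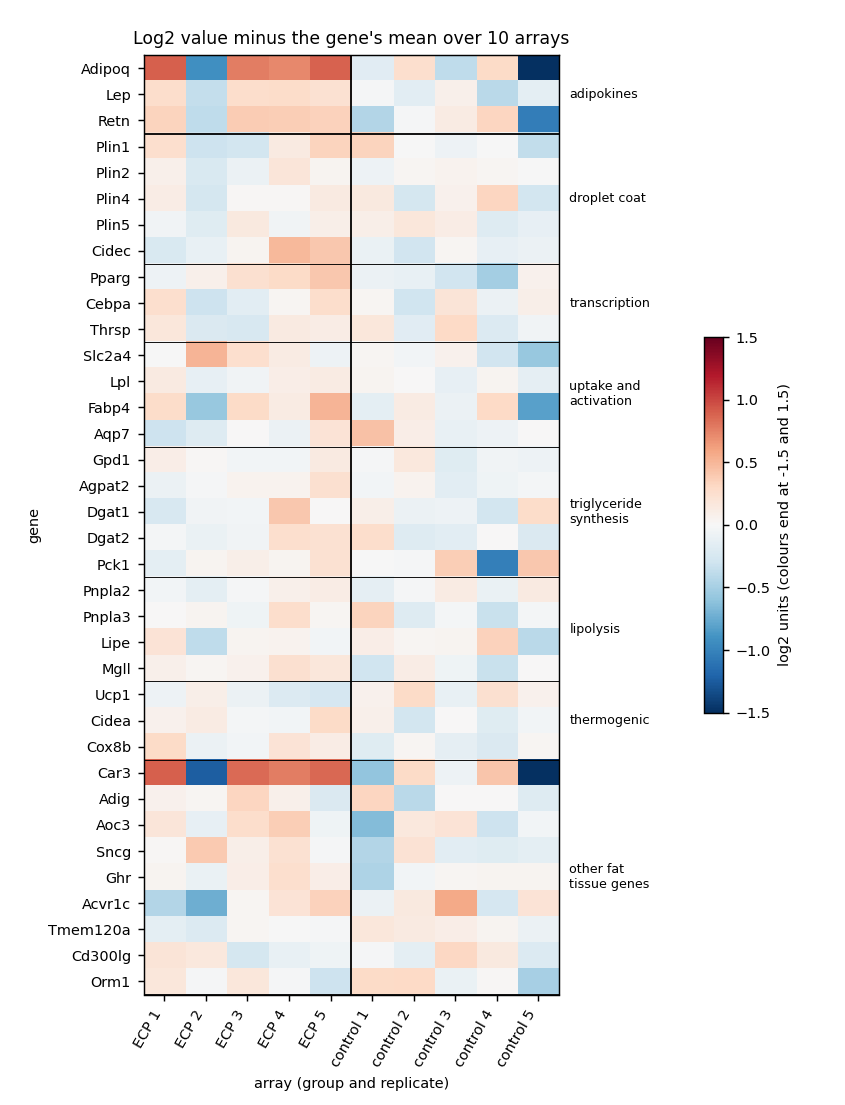
Log2 value of 3 adipokine genes and the 33 members (rows, grouped by role) on the 10 arrays (columns), as the difference from each gene's mean over the arrays, with colours ending at -1.5 and 1.5. Car3 and Fabp4 share the pattern of Adipoq and Retn, blue in ECP replicate 2 and control replicate 5, and most other rows are pale.

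Between the groups no member passed the threshold. With limma, 0 of 33 members and 0 of 19505 genes (0%) had an adjusted p under 0.05 for ECP minus control. An unadjusted p under 0.05 was reached by 5 members (15.2%), against 5.08% of all genes (991). Of these, 4 members were higher (2.31% of all genes) and 1 was lower (2.77%) in the ECP arrays. Of the members, 23 had the higher mean in ECP and 10 in control, with a median difference of 0.07, against 53.3% of all genes higher and a median of 0.01. Every member's groups overlapped, where 1.22% of all genes had groups that did not (0.39% with ECP higher and 0.831% with ECP lower). The mean of all 33 members was 7.40 ± 0.11 (SD, n = 5) in ECP and 7.30 ± 0.07 (SD, n = 5) in control arrays. With the adipokine level as a covariate the members divided into 16 higher and 17 lower, with a median of -0.01.

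Pparg was higher in the ECP arrays by 0.37 (SE 0.12, limma adjusted p = 0.707), that is 10.15 ± 0.19 against 9.78 ± 0.22 (SD, n = 5). Slc2a4 was at 6.97, 7.49, 7.23, 7.11 and 6.90 in ECP and at 7.01, 6.94, 7.04, 6.69 and 6.41 in control replicates 1 to 5, a difference of 0.32 (SE 0.14, limma adjusted p = 0.956), and of 0.13 without ECP replicate 2 and control replicate 5. ECP replicates 2, 3 and 4 lay above every control array. Mgll differed by 0.23 (SE 0.09, limma adjusted p = 0.939), and its low arrays were control replicates 1 and 4 (7.74 and 7.70), the arrays with pancreatic transcripts. Without those 2 arrays the Mgll difference was 0.095 (limma adjusted p = 0.867), and its slope on the acinar marker level was -0.06 (SE 0.02, limma adjusted p = 0.198). Sncg, gamma-synuclein, a protein of white fat and of neurons, was at 7.45 ± 0.17 and 7.16 ± 0.23 (SD, n = 5), a difference of 0.29 (SE 0.12, limma adjusted p = 0.939), and of 0.18 without control replicates 1 and 4. Ucp1 ran the other way, lower by 0.22 in the ECP arrays (difference -0.22, SE 0.09, limma adjusted p = 0.950). Its probe set was dim, at percentile 9.3 of all genes by mean value. In its case 4 of 5 ECP arrays lay at or below 4.02 and 4 of 5 control arrays at or above 4.16.

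**Figure D4:**
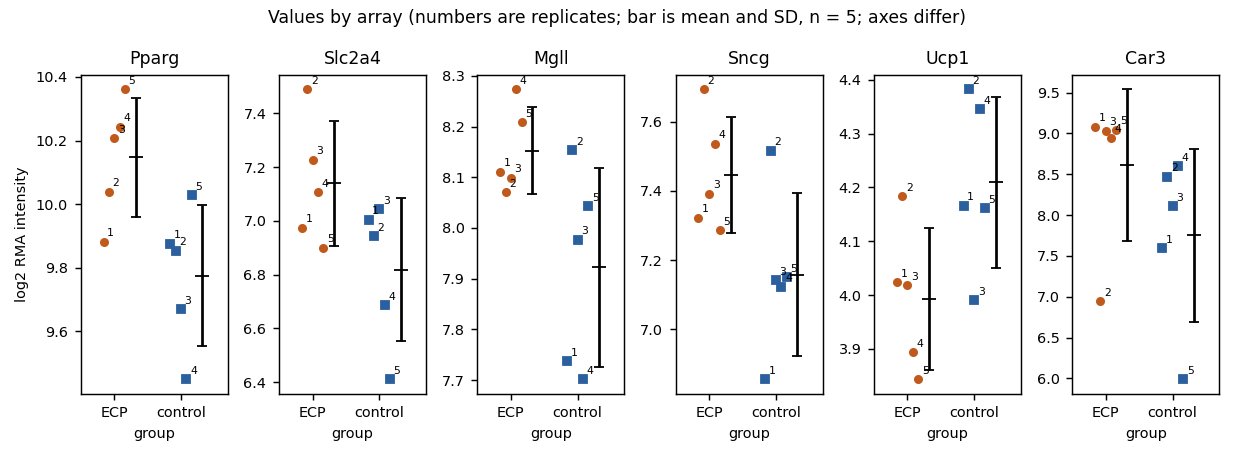
Log2 RMA intensity (vertical axes, which differ between panels) of 6 members in the 5 ECP and 5 control arrays, with replicate numbers and the mean and SD of each group. The groups overlap in every panel, and Car3 has 1 low array in each group, at 6.95 and 5.99.

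Car3 had the largest difference of the 33 but also the largest spread, 8.61 ± 0.93 in ECP and 7.75 ± 1.06 in control arrays (SD, n = 5), a difference of 0.86 (SE 0.52, limma adjusted p = 0.998). It was 1.28 without ECP replicate 2 and 0.42 without control replicate 5. Fabp4 differed by 0.25 (SE 0.22), Cidec by 0.23 (SE 0.13), Cox8b by 0.19 (SE 0.09), Cidea by 0.17 (SE 0.09), Pck1 by 0.11 (SE 0.22), Lipe by -0.05 (SE 0.14) and Acvr1c by -0.23 (SE 0.21), each with a limma adjusted p of 0.990 or higher. With the adipokine level as a covariate, the difference was -0.23 for Car3 and -0.19 for Fabp4 (limma adjusted p = 0.969 for both). The Fabp4 difference was 0.42 without ECP replicate 2, 0.16 without ECP replicate 5 and 0.08 without control replicate 5. That of Cidec was 0.14 without ECP replicate 4, and that of Acvr1c -0.08 without ECP replicate 2, -0.12 without control replicate 3, -0.15 without ECP replicate 1 and -0.35 without ECP replicate 5.

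**Figure D5:**
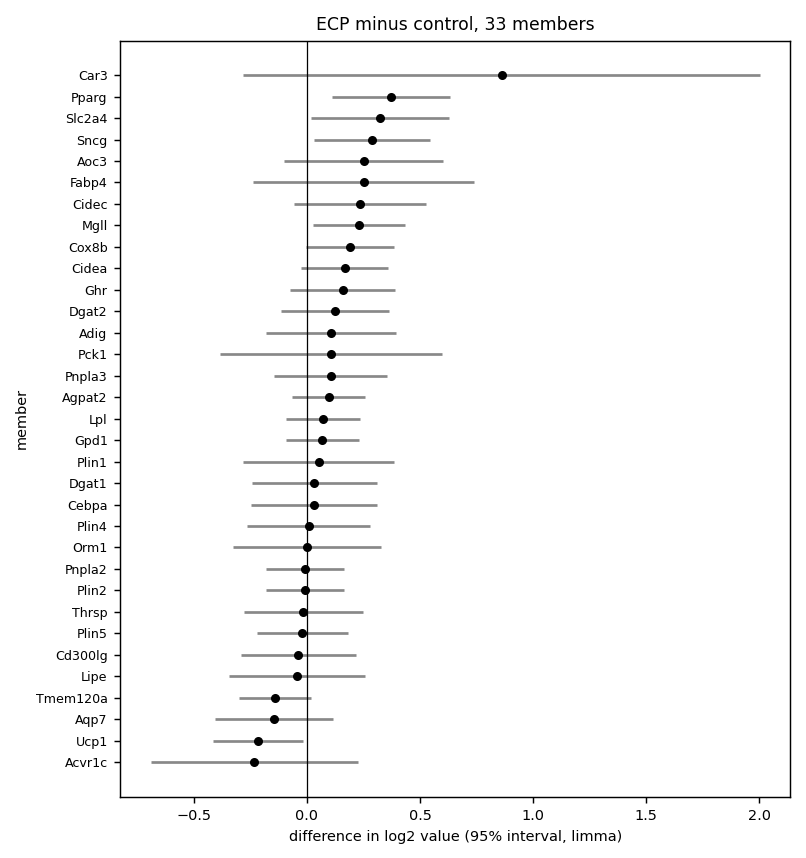
Difference between ECP and control arrays for each of the 33 members (horizontal axis, log2 units), with 95% intervals from limma, ordered by size. The intervals of Pparg, Slc2a4, Sncg and Mgll lie above 0 and that of Ucp1 below 0 before adjustment, and that of Car3 runs from -0.28 to 2.00.

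The members did not vary as 1 block. Over the 528 pairs of members the median pairwise r across the 10 arrays was 0.12, against 0.00 over all pairs of genes, and 17 pairs (3.22%) were above 0.7, against 2.28% of all pairs. Car3 and Fabp4 were the closest pair (r = 0.964, and 0.967 within groups). Lpl and Plin1 followed at 0.865, Acvr1c and Pnpla2 at 0.836, Cebpa and Thrsp at 0.823 and Lipe and Plin4 at 0.815. These r describe 10 arrays that share tissue composition, and no p is given for them.

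Pck1 had slopes past the threshold on 4 other marker levels, and all 4 calls rest on control replicate 4. Its slope was 1.64 (SE 0.31, limma adjusted p = 0.0189) on the colonocyte marker level, 2.82 (SE 0.49, adjusted p = 0.0119) on the goblet cell level, 3.71 (SE 0.64, adjusted p = 0.0206) on the skeletal muscle marker level and -0.41 (SE 0.06, adjusted p = 0.00336) on the B cell level. Those fits called 2.88%, 3.34%, 3.62% and 4.31% of all genes. Pck1 was the only member of the 33 called on any of the marker levels tried, a share near those of all genes. The levels of vessel endothelium, macrophage, acinar and smooth muscle markers called 3.91%, 2.09%, 0.267% and 0.0821% of all genes and 0 members. All 4 calls ended without control replicate 4, with slopes of 0.42 (adjusted p = 0.923), 1.11 (0.999), 1.51 (0.767) and -0.21 (0.923). That on the colonocyte level also ended without control replicate 5 (slope 1.55, adjusted p = 0.0620). Control replicate 4 had the lowest Pck1 (8.18) and the lowest colonocyte level (11.41), with the highest B cell and acinar levels. The skeletal muscle level ran only from 5.86, in control replicate 4, to 6.19. Of its 7 markers 2 ranked below the lower quartile of all genes.

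Other genes of the pathway, 58 measured of 63 listed, gave no call either. Leaving out the 3 adipokines, 36 of 55 had a positive ECP difference and 19 a negative one (median 0.03), where 53.3% of all genes were higher. Of the 55, 0 passed the threshold and 4 had an unadjusted p under 0.05, against 5.08% of all genes. These 4 were Cideb (a droplet protein of liver and gut, 0.17), Elovl6 (a fatty acid elongase, 0.19), Rxra (the partner receptor of PPARG, 0.14) and Otop1 (a proton channel of brown fat, -0.34). Rxra was the 1 gene of the 55 whose groups did not overlap (1.22% of all genes), at 8.47 ± 0.03 in ECP and 8.33 ± 0.07 in control arrays (SD, n = 5; limma adjusted p = 0.939). Of the 14 genes of fatty acid and triglyceride synthesis outside the members 13 were higher, with a median of 0.10 and a smallest adjusted p of 0.956. On the adipokine level, 26 of the 55 slopes were positive and 29 negative, and 0 passed. Angptl4, an inhibitor of lipoprotein lipase and a PPAR target, had 0.53 (SE 0.11) and Cebpd, an early factor of fat cell differentiation, 0.49 (SE 0.17), both with a limma adjusted p of 0.9995. The white fat cell markers Lgals12 and Trarg1 had -0.12 (SE 0.19) and 0.14 (SE 0.09), also with a limma adjusted p of 0.9995. The Cebpd slope was 0.10 without control replicate 5 and 0.86 without ECP replicate 2.

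Among genes that are neither members nor adipokines, the 10 largest positive slopes on the adipokine level belonged to Hp, Acod1, Reg1, Reg2, S100a8, Chil3, Cxcl2, S100a9, Try4 and Lcn2. None passed the threshold (limma adjusted p = 0.9995 for each). Hp, haptoglobin, which is made by liver and fat, led with 1.74 (SE 0.33) and r = 0.844. Acod1, S100a8, S100a9, Chil3 and Cxcl2 are genes of activated myeloid cells, with slopes of 1.60, 1.48, 1.40, 1.41 and 1.41. Without control replicate 5 the slopes of S100a8, S100a9, Cxcl2 and Lcn2 were 0.84, 0.80, 0.80 and 0.70, and that of Chil3 was 0.83 without control replicate 4. Reg1, Reg2 and Try4 are pancreatic genes and were high in the control arrays with acinar transcripts. The slope of Try4 was 0.43 without control replicate 5, 0.51 without control replicate 4 and 2.05 without ECP replicate 2; those of Reg1 and Reg2 turned sign without control replicate 5 (-0.006 and -0.22). The macrophage marker level ran from 7.40 to 8.55 and all 8 of its markers had a positive slope on the adipokine level. So did all 4 B cell and all 6 acinar markers, but 0 of 8 smooth muscle, 0 of 8 colonocyte and 0 of 6 goblet cell markers. The other marker lists held slopes of both signs. The part of these cell types in the members' slopes on the adipokine level was not tested.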

How the data were processed

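The deposited values are log2 intensities of 22203 probe sets on 10 arrays, which the authors computed by RMA in oligo (background correction, quantile normalisation, median polish), per the submitters' processing notes; versions, options and genome build: not given in the sources used here. Quantile normalisation hides a change shared by most genes. They ran from 2.81 to 13.57, and array medians from 6.94 to 6.98. All 19572 probe sets with a gene symbol in the platform annotation had 1 symbol each and matched RefSeq by gene identifier, and 2631 were unnamed here. The probe set with the highest mean stood for a gene. No detection calls were used. Groups and replicate numbers came from the sample titles.

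Differences (ECP minus control) and slopes on the adipokine level (with a group term) were fitted over all genes with limma 3.58.1 in R 4.3.3 (lmFit, eBayes, two-sided, Benjamini-Hochberg, threshold 0.05, no dim filter); Adipoq, Lep and Retn were left out of the slope test. The fits were also run on simulated data with noise drawn independently for each gene. Those data lacked shared tissue composition, so nothing about the present results is concluded from them. Correlations used 100000 permutations. The members, lists, roles and tests were chosen with earlier results of these data known, among them that Adipoq varied with Car3, so Car3's relation is not independent support; the slopes on other marker levels, the pairs and the order of Car3's values were looked at after the values were seen. Every measured member may be named; array values are given for the widest and narrowest member of each role and the largest and smallest slope, and also for Plin1, Ucp1 and Slc2a4, added after their values were seen. Alternatives covered scaling, filters, probe sets, variance options, array weights, the replicate number, arrays left out and the covariate. The number of arrays limits the precision.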

Additional observations from a re-analysis of the deposited data

Results flagged for a closer look

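In 4 of 70 groups of 5 arrays examined (33 members, the adipokine level and the member mean, in each group), 1 array lay apart from the other 4, that is, its distance to the nearest array exceeded 0.71 of the span of the group; chance flags about 1 in 20 groups, or 3.5 here. Car3 was low in ECP replicate 2, at 6.95 with the next array at 8.95. The adipokine level was low in the same array, at 5.38 with the next at 6.38, and in control replicate 5, at 4.75 with the next at 5.72. Ghr, the growth hormone receptor, was low in control replicate 1, at 8.54 with the next at 8.98.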

How the results depend on the processing

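The 0 genes called between the groups became 7 without genes below the median level and 1 without the lowest quartile or with trend and robust options, and 0 to 1 with 1 array left out (1 without control replicate 3); none of them was a member under any setting. The median difference of the members was 0.05 to 0.11 with 1 array left out. The members without overlap between the groups numbered 0 to 2 of 33 (0% to 6.06%) with 1 array left out, where 1.82% to 2.28% of all genes had none; the 2 were Mgll and Sncg without control replicate 2, and Pparg and Tmem120a without control replicate 5. Of the 2 slopes called on the adipokine level, both members, 1 was left with median centring, renewed quantile normalisation, the replicate block or without control replicates 1 and 4, 0 without ECP replicate 2 and control replicate 5 together (added after seeing the data), and 1 to 2 with 1 array left out. Where 1 was left it was Car3, and the Fabp4 slope was 0.81, 0.79, 0.92 and 0.78 under those 4 settings. Same-numbered arrays deviated from their group means with correlations of -0.24 to 0.08 over genes. No pairing by number showed in the values, though such correlations cannot exclude one. With the replicate block the group comparison still called 0 genes and the slope called 1 instead of 2.

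Signs that turned belonged to values past no threshold. With the adipokine level as a covariate the ECP difference was -0.23 for Car3 and -0.19 for Fabp4. With array weights it was -0.058 for Pck1 and 0.00 (0.002) for Lipe, and without control replicates 1 and 4 it was -0.20 and 0.089. With 1 array left out these differences ran from -0.14 to 0.22 for Pck1 (lowest without control replicate 4) and from -0.15 to 0.043 for Lipe (highest without ECP replicate 2). Without ECP replicate 2 and control replicate 5 together the slopes were -1.05 for Plin1, -0.11 for Plin4, -0.37 for Tmem120a, -0.38 for Angptl4, -1.53 for Reg1 and -2.97 for Reg2. The adipokine level then spans little within each group, so these slopes are poorly determined. The Pparg slope was 0.01 (0.014) with the replicate block, 0.10 with no group term and -0.32 to 0.065 with 1 array left out. With no group term the slopes were -0.34 for Reg1, -0.12 for Reg2 and -0.023 for Try4, and that of Reg1 was -0.091 without control replicates 1 and 4. With 1 array left out they ran from -0.01 (-0.006) to 2.68 for Reg1 and from -0.22 to 2.79 for Reg2. The cause of these turns was not tested. With Adipoq alone as the level, whose span is wider, the Car3 slope was 1.03 (limma adjusted p = 0.000969). With the mean of probe sets the members' estimates were the same, as each had 1 probe set. The level of Adipoq, Lep and Retn, planned as an alternative, is the one used, since Cfd has no named probe set here. Signal over background could not be judged without detection calls.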
